A study of Mus musculus with 6 samples.

Results

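The genes described here are 54 listed members of the DNA replication and S-phase machinery, taken as the rows of 2 deposited FPKM tables whose gene name, split at commas, is a member. Of these, 52 had a row in both tables, which hold 46951 rows for tumors and 46952 for cultures. Expression of Cdt1 and Gins2 was not analysed here. All 52 reached 1 FPKM (fragments scaled to transcript length and library size) in at least 1 library of each table.

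Each of 6 groups was 1 RNA-seq library, and the mice were C57BL/6. Cells of the glioma-initiating line 7080 (GICs, glioma cells able to seed a new tumor) were injected into brains of hosts that were young or old. The young tumor, the old tumor and a tumor labelled as an old host with NMN before the tumor were taken once symptoms appeared. The matching cultures are a young GIC library, an old GIC library labelled NT, and a GIC library from an old host with NMN beforehand; these 2 old-host conditions are called old and NMN-before. All 3 tumors carry the cell line label ms7080 and all 3 cultures the label 7080X1. NMN is not spelled out in the labels; its usual meaning is nicotinamide mononucleotide, from which cells make NAD+. Host ages, the NMN dose and how many mice each library pools were not given in the sources used here. The tumor model is thus a single implanted line, and a tumor library also holds RNA of the host brain.

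As background, a cell that commits to division loads the MCM helicase onto replication origins in G1 and fires those origins in S phase. Cyclin E with its kinase and the E2F transcription factors drive that entry, and many genes named here are classical E2F targets. Their RNA is widely read as a sign of cycling cells, and mature neurons do not replicate their DNA.

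With 1 library per group there was no replicate check and no test between conditions. Differences were taken as log2 of FPKM with 1 added, and a call is a rule of size on that scale: the small step, a factor of 5/4 (0.32 in log2), or 2-fold. Beside each count over all members, by direction or by these rules, stands the percentage of all rows that met the same rule. All rows are the 14335 tumor rows and 12809 GIC rows with at least 1 FPKM in some library. Depth, recovered from the steps of low FPKM values, was 11.3 to 18.8 M fragments in tumors and 9.68 to 12.7 M in GICs. Fragment counts were estimated from depth and transcript length less an offset of 140 to 160 bases in tumors and 120 to 140 in GICs. From them each ratio got a 95% interval (exact Clopper-Pearson, counting error only). It was scaled by depth alone, so where offsets differed it is an interval of fragments per depth. It then lies slightly off the FPKM ratio, most for short transcripts. Intervals were computed for members alone, so their counts have no share of all rows beside them. Progenitor markers were present in every library, with Sox2 between 52.1 and 79.4 FPKM and Olig2 between 108 and 254 FPKM. The GIC cultures held few host transcripts: the neuron marker Snap25 was at 0.578 to 1.08 FPKM there against 78.0 to 221 FPKM in tumors.

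All 52 members were above 2 FPKM in all 6 libraries. Their median level was 22.2, 18.6 and 21.4 FPKM in the tumors (young, old, NMN-before, the order used for values throughout), and 39.5, 42.1 and 39.2 FPKM in the matching GICs. Within its own library the median member stood at percentile 63.2 to 67.7 of the rows tested in tumors and 79.1 to 80.6 in GICs. The lowest members were Orc1 and E2f7 in tumors, with Orc1 at percentile 15.8 in the NMN-before tumor, and E2f2 in GICs, at percentile 27.7 to 31.5. The 2 tables were normalized apart, so levels were not tested between them.

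Subunits of a complex were not equally abundant per length. In the MCM2-7 ring, the helicase motor, Mcm4 was the lowest subunit in every library, at 20.3 to 22.5 FPKM in tumors and 55.2 to 60.02 in GICs. The highest was Mcm7 in the young and old tumors (87.2 and 75.8 FPKM) and Mcm5 in the other 4 libraries. Among the GINS subunits measured, which lock the helicase into its active form, Gins3 was lowest throughout, at 5.29 to 7.26 FPKM in tumors and 8.46 to 10.1 in GICs. Primase and DNA polymerase alpha, which start each new strand, ranged from Pola1 at 6.62 FPKM to Prim1 at 27.0 in the young tumor, a ratio of 4.07. The RPA subunits, which coat single-stranded DNA, lay within a ratio of 2.04 in each library.

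**Figure D1:**
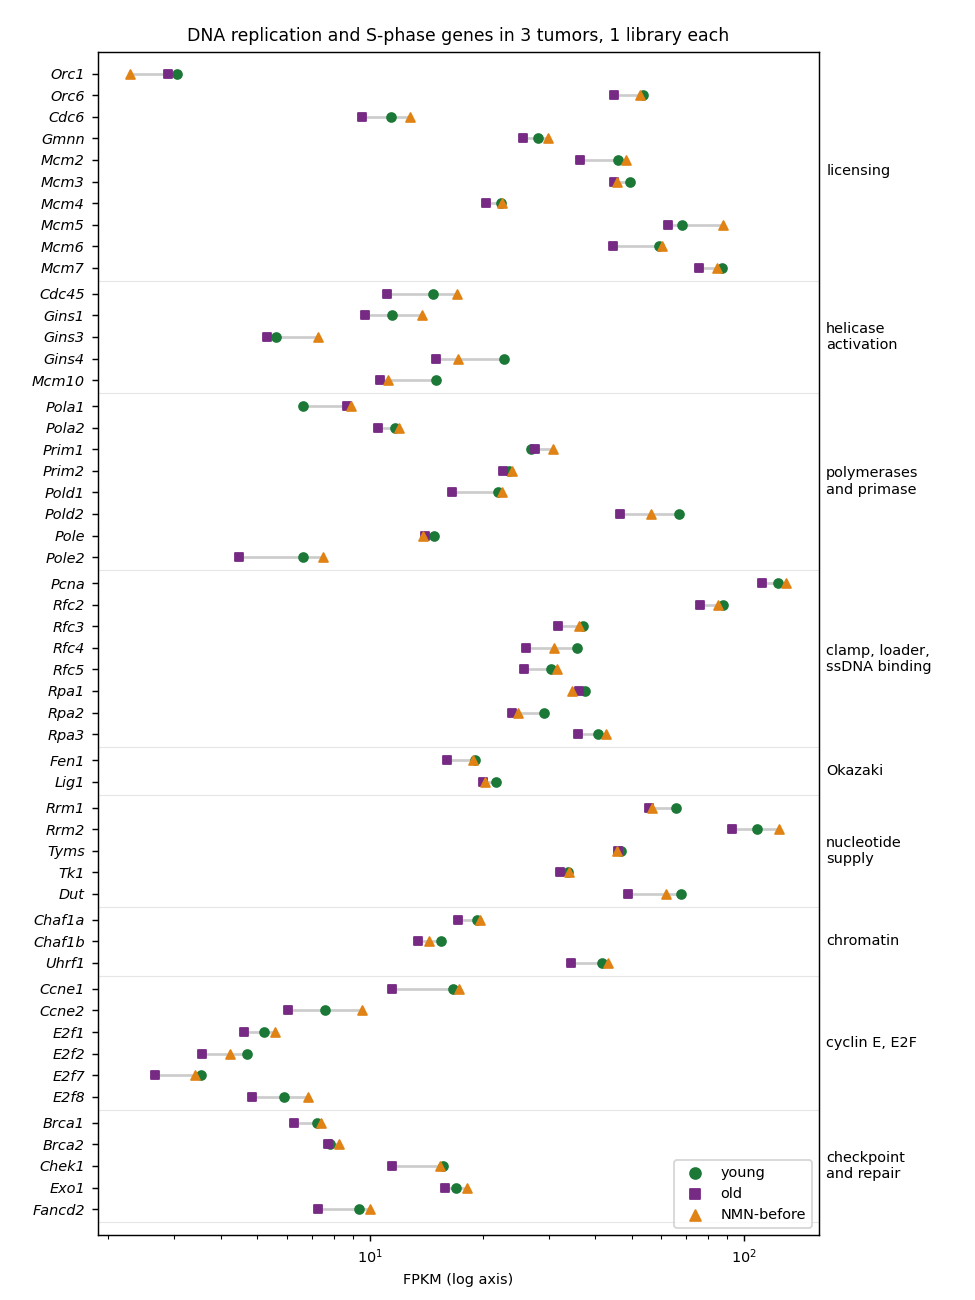
FPKM of the 52 members in the young (circle), old (square) and NMN-before (triangle) tumors on a log axis, grouped by role; each point is 1 library. The old tumor is the lowest point for 46 members and the highest for none.

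To show what the promoters of the set share, RefSeq windows from 250 bases before to 50 after a transcription start (GRCm38.p6) were searched on both strands for 4 E2F-type strings of letters, TTTCCCGC, TTTCGCGC, TTTGCCGC and TTTGGCGC. A window was found for 43 of the 54 listed genes. Of these, 17 held such letters (39.5%), Cdt1 among them, against 2.60% of 27025 genes with a window. Licensing genes held them in 7 of 9 cases, polymerase and primase genes in 3 of 6, and nucleotide supply genes in 0 of 5. The letters CCAAT stood in 60.5% of the member genes and 41.1% of all genes, and the CHR-type letters TTTGAA or TTCGAA in 20.9% and 21.7%. A match is a description of letters and not a binding site.

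Stretches of up to 150 bases before the start, ended where an annotated exon begins, are given for 5 members that the values below return to. They run 5′ to 3′ on the strand of the gene, and capitals mark E2F-type letters. Mcm5 (chr8:75109359-75109508, plus strand), Mcm6 (chr1:128359706-128359855, minus strand) and Pola1 (chrX:93632156-93632305, minus strand) hold them. Ccne1 (chr7:38107535-38107640, minus strand) and Rrm2 (chr12:24708104-24708240, plus strand) have none in the stretch, which says nothing of sites elsewhere. In Mcm6 the first capital run is 2 overlapping matches on opposite strands.
Mcm5: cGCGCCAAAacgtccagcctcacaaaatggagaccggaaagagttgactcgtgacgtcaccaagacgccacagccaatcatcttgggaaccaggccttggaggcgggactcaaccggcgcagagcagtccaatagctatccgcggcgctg
Mcm6: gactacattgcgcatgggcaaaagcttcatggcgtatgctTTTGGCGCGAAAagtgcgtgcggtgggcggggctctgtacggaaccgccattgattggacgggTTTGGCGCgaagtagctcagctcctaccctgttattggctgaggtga
Pola1: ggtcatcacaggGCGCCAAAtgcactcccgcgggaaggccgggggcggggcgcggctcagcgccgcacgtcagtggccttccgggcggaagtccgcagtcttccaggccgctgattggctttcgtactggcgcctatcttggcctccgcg
Ccne1: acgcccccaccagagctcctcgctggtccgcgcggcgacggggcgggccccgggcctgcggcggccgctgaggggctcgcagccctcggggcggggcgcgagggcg
Rrm2: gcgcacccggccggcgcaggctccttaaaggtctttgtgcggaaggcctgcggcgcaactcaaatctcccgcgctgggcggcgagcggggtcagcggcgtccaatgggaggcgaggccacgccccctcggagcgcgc

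The differences of members with and without these letters covered overlapping ranges in all 6 comparisons. For old minus young tumor, the median was -0.21 over 16 measured members with the letters and -0.23 over 26 without. For NMN-before minus old tumor both medians were 0.23. They were 0.19 and 0.11 for old minus young GIC, and -0.19 and -0.13 for NMN-before minus old GIC. For NMN-before minus young they were 0.03 and 0.01 in tumors, and both -0.01 in GICs. These differences between medians were not tested.

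The first comparison concerns host age. In the old tumor, replication genes were lower than in the young tumor almost throughout: 50 of 52 members were lower, while 51.5% of all rows were. The median difference was -0.22, against -0.01 over all rows. Single differences were small. None of the 52 members passed 2-fold in either direction (2.6% of all rows did), and 13 were lower and 1 higher by the small step (11.6% and 14.1% of all rows). The counting interval lay wholly below 1 for 31 members and wholly above 1 for 1 (not computed for all rows). The intervals of Mcm4 and Exo1 ended at 1.002, so the count below 1 could differ for the FPKM ratio itself. After rescaling to TPM, which gives all values of a library the same sum, 46 members were lower and 6 higher, while 58.0% of all rows were higher.

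All 10 licensing genes measured were lower in the old tumor. Mcm6 was at 59.2 FPKM in the young, 44.5 in the old and 60.4 in the NMN-before tumor, and its promoter stretch above has 3 matches. Mcm2 was at 46.0, 36.4 and 48.2 FPKM in the same order. Both had the old tumor at the bottom and the other two close together. The remaining ring genes Mcm3, Mcm4, Mcm5 and Mcm7 differed between old and young by -0.20 to -0.13 (log2); the Mcm7 row also names Mir25 and Mir93, microRNA genes inside it. Cdc6, which recruits the helicase to origins, was at 11.4, 9.53 and 12.7 FPKM. Gmnn, which encodes geminin, the inhibitor of relicensing, was at 28.2, 25.5 and 29.9 FPKM. Orc1, the largest subunit of the origin recognition complex, was lowest in the NMN-before tumor, at 3.05, 2.88 and 2.29 FPKM, and counting intervals of its tumor ratio of old to young held 1. Orc6, another subunit, was at 53.5, 44.8 and 52.7.

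Helicase activation genes showed the lowest median of any role in old minus young tumor, -0.38 over 5 genes. Gins4 was at 22.8, 15.01 and 17.1 FPKM in the young, old and NMN-before tumors, and Mcm10, which helps the helicase start unwinding, was at 15.03, 10.6 and 11.2. In these genes the young tumor stood apart and the other two were close. Cdc45, the helicase cofactor, was instead lowest in the old tumor alone, at 14.7, 11.1 and 17.05 FPKM. Gins1 was at 11.5, 9.69 and 13.8 FPKM.

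Polymerase genes held both exceptions. Pola1, the catalytic subunit of DNA polymerase alpha and the only member on the X chromosome (93304767 to 93632155, minus strand), was at 6.62 FPKM in the young, 8.70 in the old and 8.89 in the NMN-before tumor. Its old to young ratio was 1.31, with a counting interval from 1.16 to 1.49. Prim1, the catalytic primase subunit, was at 27.0, 27.5 and 30.8 FPKM, a difference of 0.03 between old and young. After the median of rows with like GC content was subtracted, the Pola1 difference was 0.30, under the small step. The lagging-strand polymerase delta went the other way: Pold2 was at 66.9, 46.4 and 56.3 FPKM and Pold1 at 21.9, 16.5 and 22.6. Pole2, a subunit of the leading-strand polymerase epsilon, was at 6.60, 4.45 and 7.47 FPKM, while its catalytic partner Pole hardly differed, at 14.8, 14.05 and 13.9.

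Clamp, clamp loader and single-strand binding genes were lower in the old tumor in 8 of 8 cases, with a median of -0.21. Pcna, the sliding clamp, was the most abundant member in tumors at 123 FPKM in the young, 112 in the old and 129 in the NMN-before tumor; named pseudogenes of Pcna exist and could share its reads. Rfc4, a clamp loader subunit, was at 35.8, 26.1 and 31.0 FPKM, and Rfc2, another one, at 87.8, 76.1 and 85.1. Of the Okazaki fragment genes, the flap nuclease gene Fen1 was at 19.1, 16.05 and 18.9 FPKM and the ligase gene Lig1 at 21.8, 20.01 and 20.2.

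Nucleotide supply genes were lower in 5 of 5 cases, though Tyms (thymidylate synthase) differed by only -0.02 and Tk1 (thymidine kinase) by -0.07. Dut, the dUTPase that keeps uracil out of DNA, differed by -0.46. Rrm2, the regulated subunit of ribonucleotide reductase, was at 108 FPKM in the young, 92.6 in the old and 124 in the NMN-before tumor. Uhrf1, which guides maintenance DNA methylation at the fork, was at 41.6, 34.5 and 43.2 FPKM, and the histone chaperone genes Chaf1a and Chaf1b differed between old and young by -0.16 and -0.19.

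Among regulators, all 6 cyclin E and E2F genes were lower in the old tumor. Ccne1 was at 16.7, 11.5 and 17.3 FPKM and Ccne2 at 7.57, 6.03 and 9.52. E2f1, an activating E2F, was at 5.21, 4.59 and 5.57 FPKM, and the atypical repressors E2f7 and E2f8 differed between old and young by -0.31 and -0.24. Counting intervals of the old to young ratio held 1 for E2f1 (0.71 to 1.11) and E2f7 (0.43 to 1.38). They lay below 1 for Ccne1, Ccne2, E2f2 and E2f8. The checkpoint kinase gene Chek1 was at 15.7, 11.4 and 15.4 FPKM, and Fancd2, of the crosslink repair pathway, differed between old and young by -0.33. Brca2, of homologous recombination, was nearly level at 7.83, 7.72 and 8.28 FPKM.

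Markers of host cells did not all differ in the same direction, and their part in this pattern was not tested. Microglia markers were higher in the old than in the young tumor in 8 of 8 cases, with summed levels of 173, 269 and 243 FPKM in the young, old and NMN-before tumors. Neuron markers were higher in 7 of 9 cases, with sums of 214, 263 and 554 FPKM. In such bulk samples, fewer cycling cells and less of these RNAs per cell cannot be told apart. Erythroid markers were higher in 5 of 5 cases, with sums of 169, 224 and 57.9 FPKM. Astrocyte markers were higher in the old tumor in 3 of 5 cases (median 0.56), although their sum was 2777, 2351 and 2175 FPKM, nearly all of it Gfap. Oligodendrocyte markers were higher in 4 of 6 cases (median 0.35), although their sum was 689.7, 577 and 454 FPKM, most of it Cnp and Mbp. Endothelial markers were higher in 1 of 5 cases, with sums of 44.3, 39.6 and 48.7 FPKM. Progenitor markers were higher in the old tumor in 2 of 5 cases (median -0.19), with sums of 343, 306 and 297 FPKM.

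**Figure D2:**
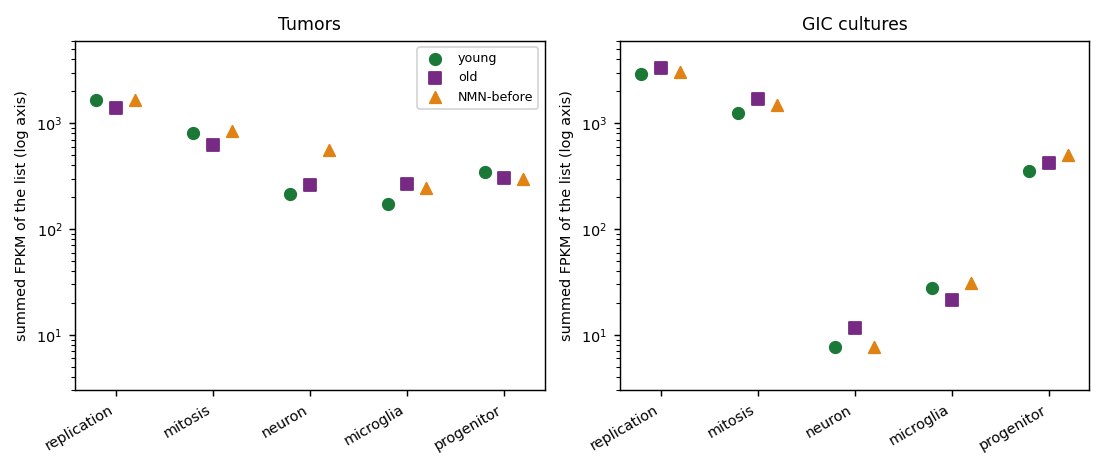
Summed FPKM of the replication members and of 4 other lists in each library, on a log axis, for tumors (left) and GIC cultures (right); each point is 1 library. In tumors the replication and mitosis sums are lowest in the old library, whereas the neuron sum is lowest in the young one.

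The nearest related set, 20 mitosis genes, was lower in the old tumor in 20 of 20 cases with a median of -0.34. Mki67, the proliferation marker, was at 35.6, 27.8 and 33.9 FPKM. The members' summed level over the mitosis sum was 2.05 in the young, 2.23 in the old and 1.97 in the NMN-before tumor. Of 38 other replication genes outside the members, 28 were lower in the old tumor, 6 by the small step, and 0 were higher by it. The lowest was the histone chaperone gene Asf1b at 12.8 FPKM against 19.0 in the young tumor, followed by Rfc1, the large clamp loader subunit, at 21.03 against 30.1. Other fork repair genes were lower in 20 of 22 cases (median -0.12).

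G1/S control genes did not share the direction. Of 24 measured, 10 were higher and 14 lower in the old tumor, with a median of -0.05. Myc, a driver of growth and S-phase entry, was at 383 FPKM in the young, 217 in the old and 227 in the NMN-before tumor. Ccnd2, a D-type cyclin, was at 12.3, 23.2 and 13.8 FPKM, and Cdkn1b, a CDK inhibitor, at 15.7, 21.99 and 18.5.

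Replication genes in the NMN-before tumor exceeded the old tumor in 48 of 52 members (51.5% of all rows), with a median difference of 0.22 against 0.01 over all rows. This comparison shares the old library with the one above, so the pair cannot be read as independent. By the small step, 16 members were higher and 0 lower (15.4% and 13.3% of all rows), and none passed 2-fold (3.11% of all rows). Neuron markers were higher than in the old tumor in 9 of 9 cases and erythroid markers in 0 of 5; their part was not tested. Counting intervals of the ratio lay above 1 for 27 members and below 1 for 0 (not computed for all rows). The furthest apart were Pole2 (0.63), Ccne2 (0.58), Cdc45 (0.57), Ccne1 (0.55) and Mcm5 (0.48). Exons of Pole2 overlap those of Gm49384 on the same strand, and its fewest estimated fragments in a library were 75. The 4 members that were lower were Orc1 (-0.24), Rpa1 (-0.06), Pole (-0.02) and Tyms (-0.01).

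By role, helicase activation (median 0.39) and cyclin E and E2F genes (0.34) were furthest up, and nucleotide supply genes least (0.08). All 20 mitosis genes were higher (median 0.36), as were 28 of 38 other replication genes; Hells, a chromatin remodeler of S phase, was at 16.2 against 10.8 FPKM. Clspn, the checkpoint adaptor claspin, was instead lower, at 7.29 against 10.3. Among G1/S genes Tfdp1, the E2F partner, reached 114 FPKM, with 80.2 in the old tumor.

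Set beside the young tumor, the NMN-before tumor showed no common direction. Of the members, 30 were higher and 22 lower (48.8% and 50.9% of all rows), with a median of 0.03 against -0.01. Only Pola1 (0.38) and Mcm5 (0.36) were higher, and Mcm10 (-0.40) and Gins4 (-0.39) lower, by the small step (16.8% and 12.7% of all rows), and none passed 2-fold (3.77% of all rows). Mcm5, whose promoter stretch is given above, was at 68.2 FPKM in the young, 62.3 in the old and 87.6 in the NMN-before tumor, and it was the only member above both other tumors by the small step (8.89% of all rows). The old tumor was below both others by that step for 9 members (4.36% of all rows), namely Mcm2, Mcm6, Cdc45, Pold1, Pole2, Dut, Ccne1, Chek1 and Fancd2, and above both for 0 (5.85%). The young tumor was above both for Gins4 and Mcm10 (4.5%) and below both for Pola1 (6.97%), and the NMN-before tumor was below both for 0 (5.46%). Across the 3 tumors, the old library was the lowest for 46 of 52 members (33.5% of all rows) and the highest for 0 (30.3% of all rows). The young tumor was the highest for 22 (35.1%) and the lowest for 2 (32.7%), and the NMN-before tumor the highest for 30 (34.6%) and the lowest for 4 (33.8%).

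**Figure D3:**
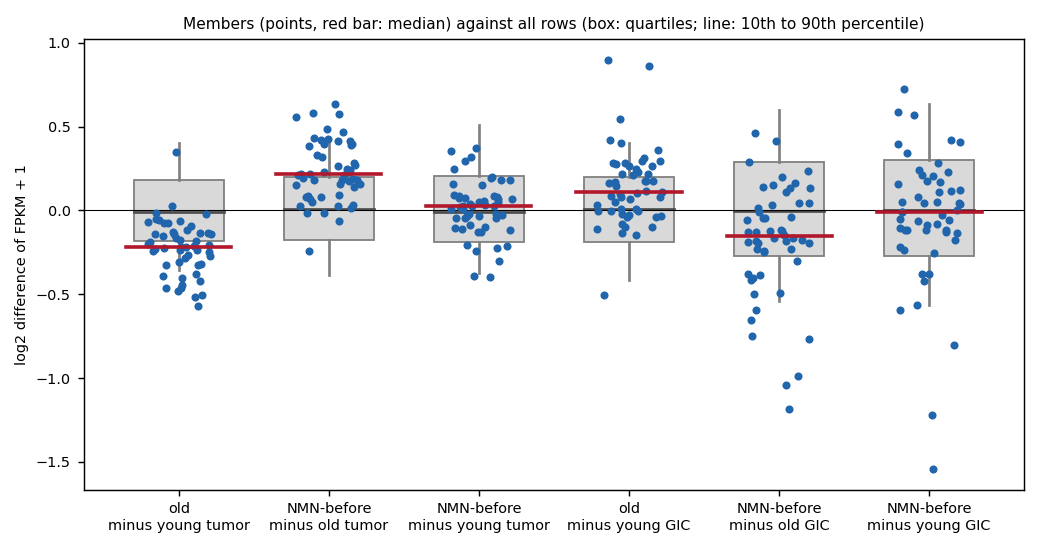
log2 differences of FPKM plus 1 of the 52 members (points; red bar, their median) in 6 comparisons, over all rows tested (box, quartiles; line, 10th to 90th percentile). The members sit below 0 in old minus young tumor and above 0 in NMN-before minus old tumor, whereas the GIC comparisons spread to both sides, with Ccne1 and Ccne2 at the bottom of both NMN-before ones. Comparisons within a table share libraries.

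**Figure D4:**
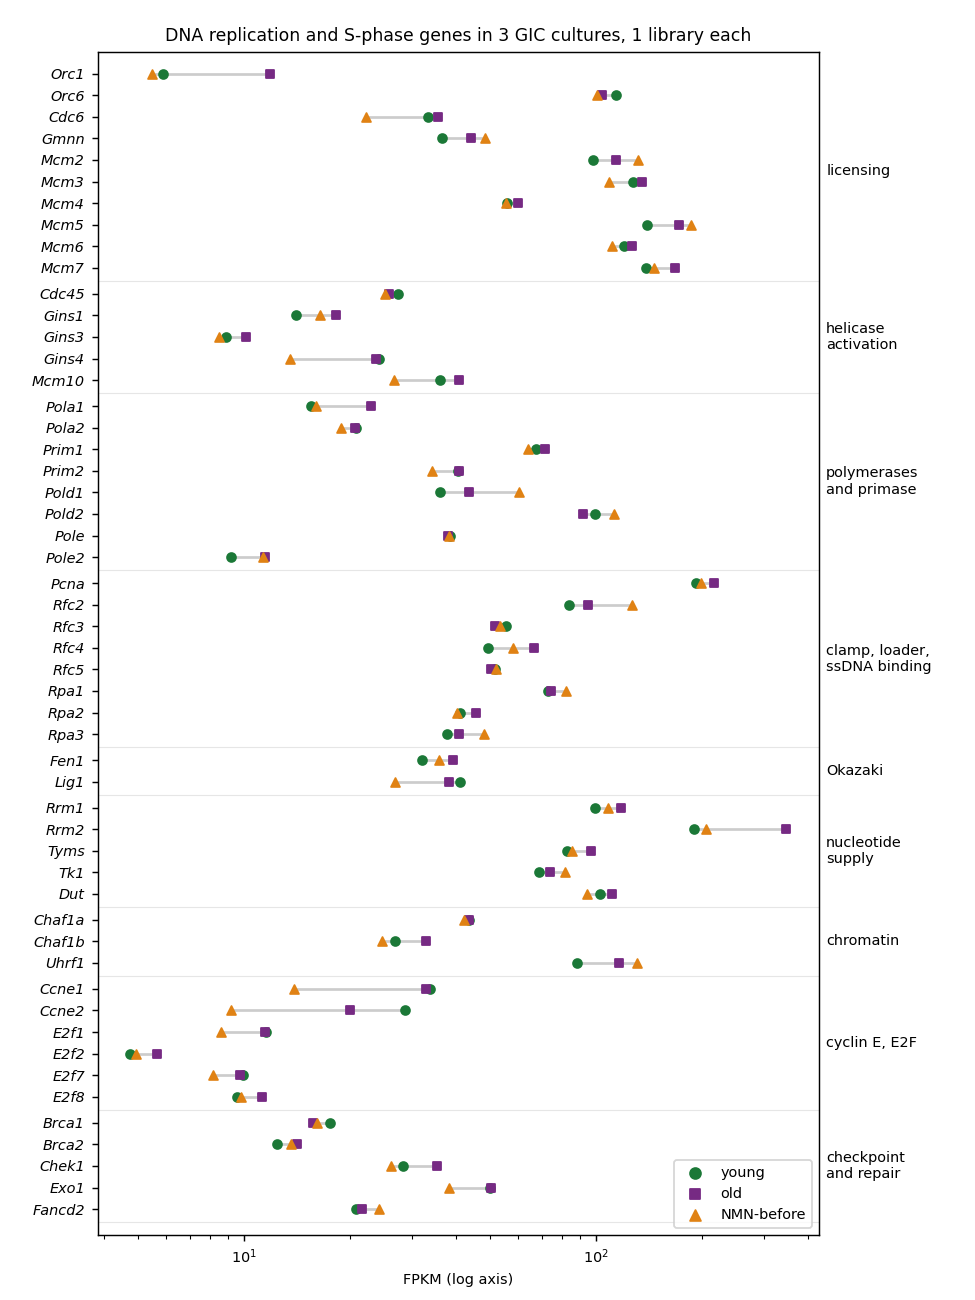
FPKM of the 52 members in the young (circle), old (square) and NMN-before (triangle) GIC cultures on a log axis, grouped by role; each point is 1 library. The old culture is the highest point for 27 members and the lowest for 5; Ccne1 and Ccne2 have the NMN-before point far to the left.

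In culture, old hosts went with slightly higher values. Between old and young GICs, 37 of 52 members were higher in the old library (51.5% of all rows), with a median difference of 0.11 against 0.01 over all rows. By the small step, 6 were higher and 1 lower (14.8% and 14.6% of all rows), both below the background, and none passed 2-fold (2.8% of all rows). After rescaling to TPM, 33 were higher, against 43.3% of all rows. Counting intervals lay above 1 for 26 members and below 1 for 4 (not computed for all rows).

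A few genes stood out of that narrow spread. Orc1 was at 5.88 FPKM in young, 11.8 in old and 5.48 in NMN-before GICs, an old to young ratio of 2.01 (interval 1.69 to 2.40). With 1 FPKM added its log2 difference was 0.90, which is under the 2-fold call. Rrm2 was at 190 FPKM in young, 346 in old and 205 in NMN-before GICs, a ratio of 1.82 (1.76 to 1.89). Both were high in the old library alone. Its partner subunit Rrm1 was at 99.04, 118 and 108 FPKM, so the ratio of Rrm2 to Rrm1 was 1.91, 2.94 and 1.90. Pola1 shared the pattern at 15.4, 23.0 and 16.04 FPKM, and these 3 were the only members above both other cultures by the small step in old GICs (6.18% of all rows).

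Other members past the small step in old over young GICs were Rfc4 at 66.3 against 49.2 FPKM, Uhrf1 at 116 against 87.9 and Gins1 at 18.3 against 14.03. The only member lower by the small step was Ccne2, at 19.96 FPKM against 28.7, while Ccne1 was level at 32.8 against 33.7. All 6 MCM ring genes were higher in old GICs, by 0.07 (Mcm6) to 0.30 (Mcm5). Nucleotide supply genes were higher in 5 of 5 cases and licensing genes in 9 of 10, but cyclin E and E2F genes in 2 of 6.

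Mitosis genes were higher in old than in young GICs in 20 of 20 cases with a median of 0.42, next to 0.11 for replication. The members' sum over the mitosis sum was 2.31 in young, 1.94 in old and 2.03 in NMN-before GICs. Cdk1, the mitotic kinase, was at 226 against 146 FPKM. Among other replication genes 25 of 38 were higher, led by the fork protection gene Timeless at 31.4 against 22.6 FPKM, and among other fork repair genes 18 of 22.

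NMN-before GICs held less cyclin E RNA than either other culture, and most roles held both higher and lower members. Against old GICs, 15 of 52 members were higher and 37 lower (49.4% and 50.2% of all rows), with a median of -0.15 against 0.00 over all rows. By the small step 2 were higher and 13 lower (22.7% and 21.1% of all rows), and by 2-fold 2 were lower (2.3% of all rows). Orc1, with an FPKM ratio of 0.463, was at -0.99 with 1 FPKM added and so missed the 2-fold call. Counting intervals lay above 1 for 10 members and below 1 for 25 (not computed for all rows). This comparison shares the old library with the previous one, so the pair is not independent.

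Ccne1, which encodes cyclin E1 (chromosome 7, 38097984 to 38107534, minus strand), was at 33.7 FPKM in young, 32.8 in old and 13.9 in NMN-before GICs. Its NMN-before to old ratio was 0.423, with a counting interval from 0.368 to 0.497. Ccne2, for cyclin E2 (chromosome 4, 11191351 to 11204779, plus strand), was at 28.7, 19.96 and 9.19 FPKM, a ratio of 0.460 to old and 0.320 to young. Both genes thus had the NMN-before library lowest by a wide margin, and Ccne2 shares exon positions with Ints8 on the other strand. Cdc6 was at 33.2, 35.4 and 22.2 FPKM, Gins4 at 24.2, 23.6 and 13.5, and Mcm10 at 35.9, 40.7 and 26.6. Lig1 was at 40.9, 38.2 and 26.8 FPKM, Exo1, a resection nuclease gene, at 49.9, 50.1 and 38.1, and E2f1 at 11.5, 11.5 and 8.62. These 8 genes were the members below both other cultures by the small step (12.6% of all rows met that rule). Ccne2 was also the 1 member for which young GICs stood above both others (7.26% of all rows), and Uhrf1 the 1 for which they stood below both (7.32%); old GICs stood below both for 0 members (6.25%).

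**Figure D5:**
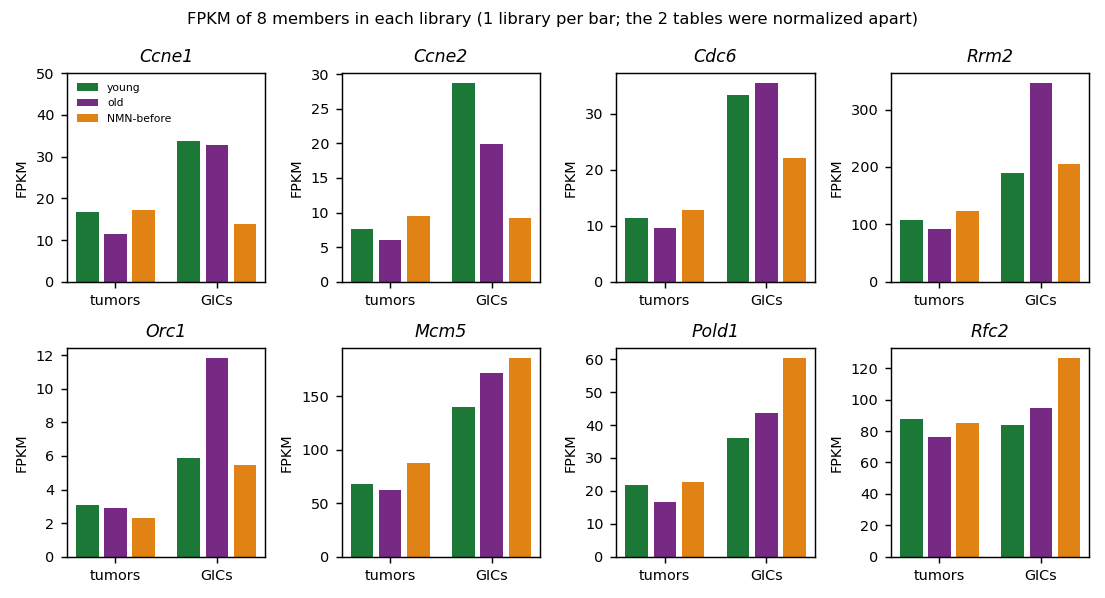
FPKM of 8 members in the 3 tumors and the 3 GIC cultures, 1 library per bar, with the axis from 0. Ccne1, Ccne2 and Cdc6 are lowest in the NMN-before GICs but highest in the NMN-before tumor; Rrm2 and Orc1 peak in the old GICs; Pold1, Rfc2 and Mcm5 are highest in the NMN-before GICs.

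Other members were highest in NMN-before GICs. Pold1, the catalytic subunit of polymerase delta (chromosome 7, 44532746 to 44548849, minus strand), was at 36.1 FPKM in young, 43.6 in old and 60.3 in NMN-before GICs, a ratio to young of 1.67 (interval 1.57 to 1.7998). Rfc2 was at 83.8, 94.7 and 126 FPKM, a ratio to young of 1.51 (1.46 to 1.57). These were the 2 members above both other cultures by the small step (15.1% of all rows). Mcm2 at 97.6, 114 and 131 FPKM, Mcm5 at 139, 171 and 185, Uhrf1 at 87.9, 116 and 131, and Gmnn at 36.5, 44.0 and 48.4 stepped in the same order.

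The MCM ring was therefore divided in NMN-before GICs. Against young GICs, Mcm2 and Mcm5 were higher by 0.42 and 0.41 and Mcm7 by 0.08, whereas Mcm3 was lower at 109 against 127 FPKM and Mcm4 and Mcm6 differed by -0.01 and -0.12. The spread of the 6 differences was 0.64, compared with 0.23 between old and young GICs. All rows were also further apart from young GICs in the NMN-before library. By the small step 23.8% of them were higher and 21.5% lower, compared with 14.8% and 14.6% between old and young GICs. By role, against old GICs, helicase activation genes were lower in 5 of 5 cases and cyclin E and E2F genes in 6 of 6, while clamp, loader and single-strand binding genes were higher in 5 of 8 (median 0.04). Pole was level in all 3 cultures, at 38.5, 37.8 and 38.2 FPKM.

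Between NMN-before and young GICs, members were divided, 25 higher and 27 lower (50.1% and 49.5% of all rows), with a median of -0.01. By the small step 7 were higher and 8 lower (23.8% and 21.5% of all rows), and 2, Ccne1 and Ccne2, were lower by 2-fold (3.04% of all rows). Under rescaling to TPM 19 were higher and 33 lower, with 43.2% of all rows higher. Across the 3 cultures, the old library was the highest for 27 members (30.4% of all rows) and the lowest for 5 (28.4%). The NMN-before library was the lowest for 24 members (38.6% of all rows) and the highest for 12 (38.9%), and the young library the lowest for 23 (32.9%) and the highest for 13 (30.7%).

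Transcript GC content moved weakly with some differences in tumors and in cultures. Over all rows this was most marked for the culture differences that involve the NMN-before library. Across the 52 members, Pearson's r between GC content and the NMN-before minus old GIC difference was 0.27, and 0.19 across 11740 rows, a description over genes that share the same 2 libraries. Over the members, r was 0.21 for NMN-before minus young GIC and -0.05 for old minus young GIC. Over all rows these were 0.16 and -0.04. The tumor comparisons gave -0.20 (old minus young), -0.06 (NMN-before minus old) and -0.26 (NMN-before minus young) over the members. Over all rows they gave -0.08, 0.07 and -0.01 in the same order. Pold1 has a GC content of 60.7% and Ccne2 of 36.3%, but Ccne1 has 52.7%. After the median of rows with like GC content was subtracted, 11 members were lower by the small step instead of 13. Exo1 (-0.29), Chek1 (-0.23), Pola1 (-0.31) and Pold1 (0.22) were then under that step against old GICs, whereas Ccne1 was at -1.21 and Ccne2 at -0.85. The part of GC content in single genes was not tested.

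Of the 38 other replication genes, 16 were higher and 22 lower in NMN-before than in old GICs. By the small step 5 were higher and 9 lower, where 22.7% and 21.1% of all rows were. At the extremes of that list, Pold4, the small polymerase delta subunit, was at 10.2 against 4.45 FPKM, Cdc7, the kinase that fires origins, at 39.9 against 25.6, and Hells at 31.8 against 52.1. D-type cyclins were opposite in direction to cyclin E: Ccnd1 was at 539 against 347 FPKM and Ccnd2 at 71.2 against 33.8. Myc was at 246 FPKM against 381 in both other cultures. The CDK inhibitor gene Cdkn1a was at 36.1 FPKM in young, 30.1 in old and 17.9 in NMN-before GICs, and Cdkn2c, an inhibitor of the cyclin D kinases, at 8.45, 13.8 and 21.1. Mitosis genes were lower than in old GICs in 17 of 20 cases (median -0.26), with Mki67 at 58.6 against 65.3 FPKM, but higher than in young GICs in 16 of 20.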

How the data were processed

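RNA-seq was deposited for 3 tumors and 3 GIC cultures. Per the labels' protocols, total RNA was depleted of ribosomal RNA, made into stranded libraries and sequenced as read pairs. Per the submitters' processing notes, reads were handled with STAR 2.5.4b, Trim Galore 0.6.2, Cuffdiff, bcl2fastq 1.8.4 and Cufflinks 2.2.1 on GRCm38; the annotation, normalization mode and strand setting were not given in the sources used here. The authors deposited FPKM values, 1 table for tumors and 1 for GICs; 2 lines of each are empty. A row naming several genes was kept (2 members), and of 2 Dut rows the higher was used. Exons of 17 members overlap those of a gene on the other strand, and 2 members have named pseudogenes. Exons of Mcm7, Pole2 and Rpa1 overlap those of genes on the same strand (Mir25 and Mir93, Gm49384, Gm47300). Unstranded or shared fragments could change the values of all these members.

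With 1 library per group, log2 differences of FPKM + 1 were taken among rows reaching 1 FPKM, and calls are rules of size (a factor of 5/4, and 2-fold). Depth came from whole-fragment steps of single-transcript genes (95.8% to 97.3% of low values within 0.05 of a whole number). Intervals used the shortest coding transcript of GENCODE M21 and cover counting error only. They were scaled by depth but not by the length offset, which differed between some libraries, and were computed for members alone. The calculations used Python 3.11.15, pandas 2.3.3, numpy 2.4.6 and scipy 1.17.1. Differences and depths, but not the intervals, were tested on simulated data. Members, lists and the naming rule (the 5 highest and 5 lowest differences per comparison, the 2 most abundant members per role, and fixed genes) were chosen with earlier results of these data known. Promoters are RefSeq windows on GRCm38.p6. Alternatives were pseudocount, filter, scaling and row class, plus GC content, added after the data were seen.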

Additional observations from a re-analysis of the deposited data

Results flagged for a closer look

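Some members were past a factor of 5/4 one way in tumors and the other way in GICs under the same contrast, with 1 library per group, so the difference between tumors and cultures was not tested. For NMN-before minus old, Ccne1 had log2 differences of 0.55 in tumors and -1.18 in GICs, and Ccne2 0.58 and -1.04. Rrm2 differed by 0.41 and -0.75, Cdc6 by 0.38 and -0.65, and Chek1 by 0.40 and -0.42. For old minus young, Rfc4 was at -0.44 in tumors and 0.42 in GICs.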

How the results depend on the processing

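The count of members higher, for each of the 6 comparisons, could not change under pseudocounts of 0.1 and 0.5 or without a filter. A pseudocount does not alter the sign of a difference, and all 52 members pass the main filter. Under a 5 FPKM filter, median of ratios scaling and rows that name 1 gene only, the count stayed within 1.5 times its value. It also did so under the GC correction chosen after seeing the data. The exception was rescaling to TPM, which gave 6 rather than 2 members higher in old minus young tumor; it shifted the median of all rows there from -0.01 to 0.06. None of the 71 single-gene differences past a factor of 5/4 changed sign, 5 fell under it after TPM rescaling and 10 after GC correction. Smaller pseudocounts only widen such differences, so they could not bring any under that factor. At a pseudocount of 0.1, 4 and 3 members rather than 2 and 2 were past that factor upward and downward in NMN-before minus young tumor. No paired analysis was possible because each group holds 1 library. The fewest fragments estimated for a member in a library were 21, for E2f7, a low estimate because the shortest coding transcript was used.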
